A study of Mus musculus with 72 samples.

Results

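Dimethylation of lysine 27 on histone H3 (H3K27me2) was compared between stress-susceptible and control male mice in the nucleus accumbens, a forebrain structure involved in reward. The members are all 2078 genomic sites of the deposited H3K27me2 table for this comparison, out of 36113 sites in the 5 deposited tables of the series. Both groups were wildtype male mice of the cohort used for chronic social defeat stress (CSDS), in which a mouse is repeatedly exposed to an aggressor. The Susceptible group went through defeat and was classed as affected by it, and the Control group is labelled only as control. Each group had 4 H3K27me2 libraries, numbered 50, 53, 56 and 59 for susceptible and 49, 52, 55 and 58 for control. Age, pooling of tissue and the identity of the mouse behind each library are not given in the labels, so the spread between these libraries may be technical. P-values of the authors' test, also where that test was rebuilt here, come from pooled libraries and leave that spread out. The limma and permutation p-values measure it.

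H3K27me2 is laid down by Polycomb repressive complex 2 (PRC2), the methyltransferase that also makes the mono- and trimethylated forms of the same lysine. The dimethyl form is the broad intermediate of this series, spread over long stretches of inactive and intergenic chromatin, while the trimethyl form marks repressed developmental promoters and the monomethyl form lies over the bodies of active genes. The mark was read by CUT&RUN, in which an antibody directs micrococcal nuclease to the modified nucleosome and the released DNA is sequenced. Libraries made with IgG, a nonspecific antibody, gave the background.

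Few sites lay at transcription starts, and the sequences of 4 of those starts are shown because they are the places where the mark and a gene's promoter coincide. Each is the RefSeq sequence (GRCm38.p6) of the 250 bases before an annotated start, 5′ to 3′ on the gene's strand, with every CpG dinucleotide in capitals. Prl7d1 (a placental prolactin-family hormone, chr13:27716737-27716986, minus strand), Olfr1012 (an olfactory receptor, chr2:85760375-85760624, minus strand) and Vmn2r3 (a vomeronasal receptor, chr3:64287418-64287667, minus strand) carried higher H3K27me2 in susceptible mice. Sprr2a2 (a small proline-rich protein of cornified epithelium, chr3:92250397-92250646, plus strand) carried lower H3K27me2 at its start. The gene held 1 higher site as well.
Prl7d1: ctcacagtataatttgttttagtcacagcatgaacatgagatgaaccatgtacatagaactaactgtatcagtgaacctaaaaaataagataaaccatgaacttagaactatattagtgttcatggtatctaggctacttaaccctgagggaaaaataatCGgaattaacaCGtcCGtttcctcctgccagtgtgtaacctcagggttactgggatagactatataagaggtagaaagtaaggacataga
Olfr1012: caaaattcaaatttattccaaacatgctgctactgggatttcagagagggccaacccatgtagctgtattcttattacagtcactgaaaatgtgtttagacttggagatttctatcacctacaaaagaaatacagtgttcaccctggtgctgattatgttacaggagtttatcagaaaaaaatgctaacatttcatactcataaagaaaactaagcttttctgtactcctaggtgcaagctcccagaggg
Vmn2r3: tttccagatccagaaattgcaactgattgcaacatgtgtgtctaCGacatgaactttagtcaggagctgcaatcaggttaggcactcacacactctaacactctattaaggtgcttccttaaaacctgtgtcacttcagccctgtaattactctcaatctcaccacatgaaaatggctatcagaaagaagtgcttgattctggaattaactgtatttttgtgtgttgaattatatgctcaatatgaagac
Sprr2a2: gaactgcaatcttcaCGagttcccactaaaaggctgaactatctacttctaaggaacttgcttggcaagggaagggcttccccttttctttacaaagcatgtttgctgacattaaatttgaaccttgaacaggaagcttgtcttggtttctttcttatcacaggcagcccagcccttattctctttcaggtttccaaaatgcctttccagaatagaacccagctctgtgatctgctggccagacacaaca
The Prl7d1, Olfr1012 and Sprr2a2 windows lay wholly inside their sites, and 183 of the 250 bases of the Vmn2r3 window did. They held 3 CpG for Prl7d1, 0 for Olfr1012, 1 for Vmn2r3 and 1 for Sprr2a2, against a median of 6 over 32851 RefSeq promoter windows of the same length. The motif counted was CG, which reads the same on both strands, and 49.6% of all windows held 5 or fewer. Of 21 start sites not below IgG, 15 matched a gene with a RefSeq window, and 14 of these windows, 10 of 10 at higher sites and 4 of 5 at lower sites, held 5 or fewer. Most of the 15 windows lay outside the site, with a RefSeq start up to 16166 bp away, so they do not describe the sites themselves.

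The libraries differed in depth, and 1 control library stood apart. Per the file headers, susceptible libraries averaged 17.1 to 40.63 reads per 1000-bp bin and control libraries 10.62 to 40.45. Control library 52 was the shallowest of the 8 at 10.62, and susceptible library 53 the next at 17.1. Mean depth was 29.23 ± 9.996 reads for the susceptible group and 29.02 ± 13.05 for the controls (SD, n = 4 each, two-sided exact permutation test p = 0.971, with 0.0286 the smallest p that 4 against 4 allows). Counts were scaled to a common depth by the authors, so that 1 read counted as 2.48 normalised reads in library 52 and 0.66 in library 49. Values below are these normalised read counts unless another scale is named.

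H3K27me2 was more often higher than lower in susceptible accumbens, and the differences were small. Of 48304 windows of 1000 bp that the authors tested, merged sites past an adjusted p of 0.05 numbered 2075, equal to 4.3% of the number of windows tested. A merged site can span several windows, so this is a ratio and not a share of windows. Of these, 1440 were higher in susceptible mice (2.98% on the same ratio) and 635 lower (1.31%). Thus 69.4% were higher, with an exact 95% interval of 67.4% to 71.4% that covers counting error only. The median log2 fold change in the authors' deposited table was 0.48 at higher sites, a fold of 1.39, and -0.47 at lower sites, a fold of 0.72. The tissue was measured in bulk, so a different mix of cells and a different level per cell cannot be told apart. No site changed by more than 0.82 or less than -0.67 on that scale. At higher sites the median of the group means was 95.4 reads in susceptible and 68.1 in control, and at lower sites 71.3 and 98.9. The 3 sites that missed the threshold were all lower, the nearest at an adjusted p of 0.051 against 0.0484 for the last site inside it.

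The authors' G-test pools the 4 libraries of a group and does not weigh their spread. At 1182 of the 2075 sites (57%) the 2 groups did not overlap, 824 of the higher sites (57.2%) and 358 of the lower (56.4%). limma, which does weigh the spread between libraries, called 0 sites when adjusted over all 48304 windows (Benjamini-Hochberg, smallest adjusted p = 0.577), with windows outside the table counted as not passing. It gave 1946 of the 2078 sites (93.6%) an unadjusted p under 0.05, and 1930 (92.9%) passed when adjusted over the listed sites alone. Both counts are descriptions, since the sites were in the table because they differed. limma's direction differed from the authors' at 0 sites.

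When each library was instead scaled to the same median over the listed sites, the median log2 difference of the sites moved from 0.46 to 0.23, and 655 sites passed the authors' p limit of 0.0001, 17 higher and 638 lower, against 1353 higher and 596 lower without this step. The direction of the group means was then higher at 1439 sites and lower at 639. The listed sites were chosen for differing, so this scaling removes part of any shared difference by construction.

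The direction of the sites differed above and below background. Median enrichment over IgG at higher sites was 3.0 in susceptible and 1.95 in control, and at lower sites 2.06 and 2.67. At 71 sites (3.42%) both groups were below IgG, and 69 of these were lower. Among the 2004 other sites, 1438 (71.8%) were higher and 566 lower.

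**Figure D1:**
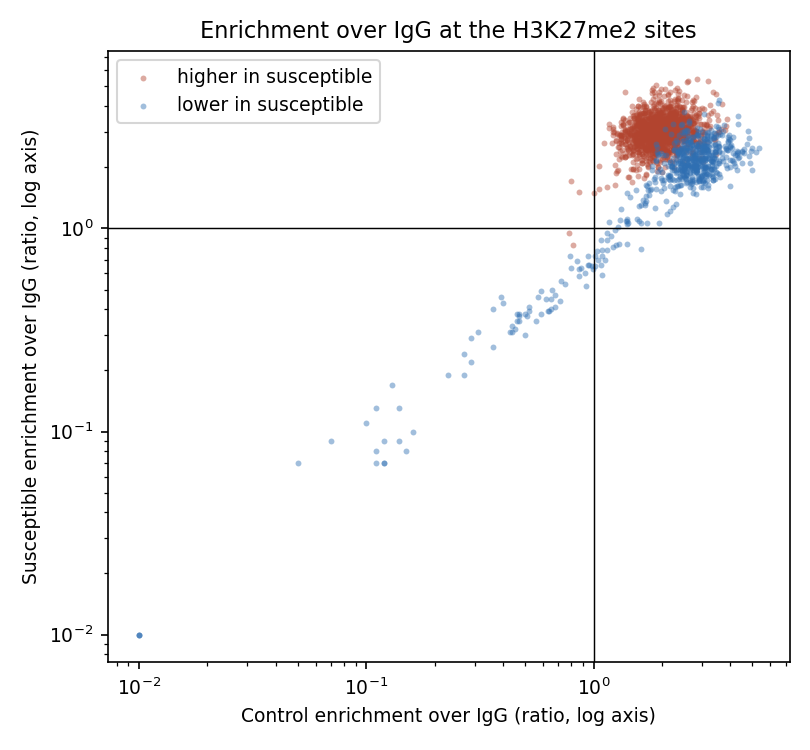
Enrichment over IgG, a ratio on log axes, in control (horizontal) and susceptible (vertical) groups, 1 point per site past an adjusted p of 0.05. Higher sites form 1 cloud above 1 on both axes (medians 1.95 and 3.0), while the tail below 1 on both axes holds 69 lower and 2 higher sites.

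Most of the differing H3K27me2 lay far from genes. Of the 2075 sites, 1840 (88.7%) were intergenic, here meaning outside protein-coding genes (166 of them overlapped another kind of annotated gene), 200 (9.64%) lay in the body of a protein-coding gene and 35 (1.69%) lay within 1000 bp of a coding transcript's start. The share of higher sites was 70.1% in intergenic sequence, 68% in gene bodies and 42.9% at starts. Higher sites were a median of 394.2 kb from the nearest start and lower sites 247.0 kb, and 619 higher sites (43%) and 197 lower sites (31%) were over 500 kb away. By the same assignment, 12.6% of 12122 susceptible H3K27me1 sites were intergenic and 76.4% lay in gene bodies. Of 4659 H3K27me2 sites in defeated mice classed as resilient, against the same controls, 90.4% were intergenic, so this placement was not particular to susceptible mice. Where the tested windows lay is not given, so these shares and distances cannot be set against them. Whether the differing sites lay further from genes than the tested windows did is therefore unknown. Sites were short, with a median length of 1100 bp.

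The sites were spread unevenly over chromosomes. Chromosomes 3, 1, 4 and 14 held 334, 322, 201 and 186 sites, 1043 of 2075 together (50.3%), against 23.9% of H3K27me1 sites. The resilient H3K27me2 comparison was uneven too, with 714, 835, 401 and 491 of its 4659 sites on these chromosomes. Chromosomes 7, 9, 17 and 19 held 17 sites together (0.819%), of which 11 were below IgG, while 14.8% of H3K27me1 sites lay there. The resilient H3K27me2 comparison had 12, 10, 10 and 0 sites on them. No site lay on X or Y, and none did in the susceptible H3K27me1 or resilient H3K27me2 comparison either. How many windows were tested on each chromosome is not given in the table, so these counts cannot be set against it. Over the 15 chromosomes with at least 40 sites not below IgG, the higher share ran from 62.9% on chromosome 18 to 77.3% on chromosome 16. The densest 5-Mb stretch was on chromosome 1 between 100 and 105 Mb, with 38 sites, 30 higher, and 1 protein-coding gene. The next was on chromosome 14 between 80 and 85 Mb, with 35 sites, 26 higher, all intergenic, and also 1 gene. Neighbouring sites under 100 kb apart had the same direction in 534 of 840 pairs (63.6%), where the split of directions alone gives 57.5%.

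**Figure D2:**
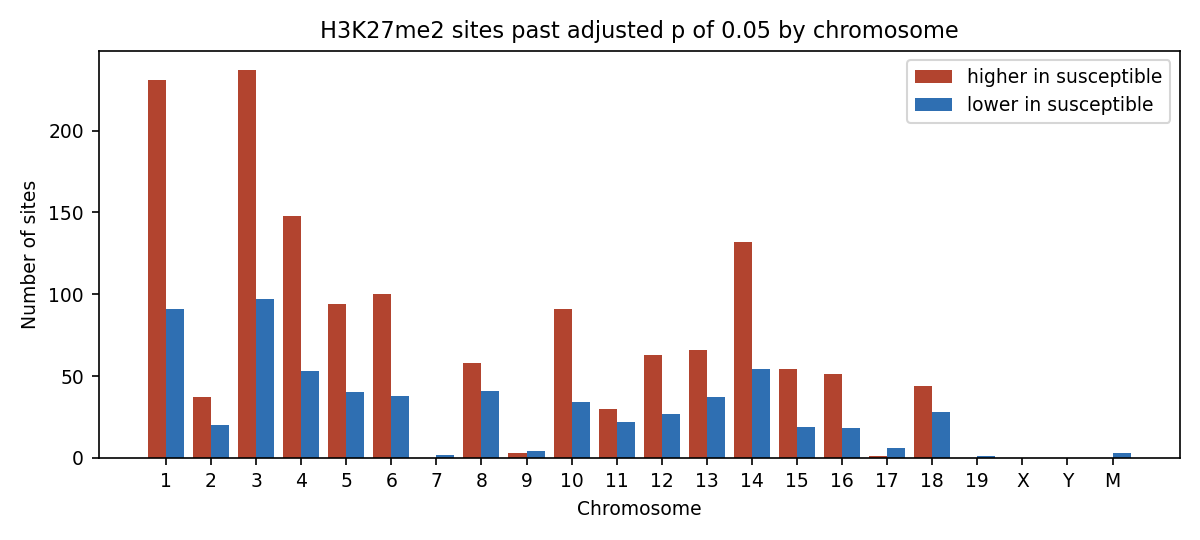
Number of H3K27me2 sites higher (red) and lower (blue) in susceptible mice on each chromosome. Chromosomes 3 and 1 hold 334 and 322 sites, chromosome 19 holds 1, and X and Y hold 0.

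The intergenic sites with the smallest limma p are shown as examples, and choosing them by that p favours tight, separate groups. At chr1:112500801-112502000, 635883 bp from the nearest start, the 4 susceptible libraries read 87.97, 103, 92.98 and 94.6 and the 4 controls 62.1, 66.96, 49.6 and 62.3. Every susceptible library lay above every control (deposited log2 fold change 0.65, authors' adjusted p = 1.72e-05, limma unadjusted p = 0.00052). At chr3:48216901-48218100, a lower site 1537364 bp from a start, susceptible libraries read 62.8, 69.4, 67.5 and 60.6 and controls 95.1, 102, 99.2 and 102, again without overlap (log2 fold change -0.61, authors' adjusted p = 3.43e-05, limma unadjusted p = 0.000481). Enrichment over IgG there was 1.6 in susceptible and 3.02 in control. The intergenic higher site with the smallest authors' p had overlapping groups. At chr4:73510701-73512800 the adjusted p was 4.65e-10, with susceptible libraries at 226, 170, 217 and 215 and controls at 172, 66.96, 145 and 172. Library 52 was the low one, and library 53 overlapped the controls.

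Sites in genes fell in 152 of 21951 protein-coding genes, 84 with higher sites alone, 48 with lower alone and 20 with both. These were long genes, with a median length of 128.1 kb against 17.4 kb for all protein-coding genes, and long genes hold more windows. Of the gene sites, 151 of 235 were higher and 84 lower, and the groups did not overlap at 136.

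Gpc5, a glypican (a cell-surface heparan sulphate proteoglycan), held the most sites of any gene, 8 over 1433 kb, all intronic, 7 higher and 1 lower. At its leading site, chr14:116429801-116431600, susceptible libraries read 149, 170, 149 and 168 and controls 127, 91.8, 130 and 109, with no overlap (159 ± 11.7 against 114 ± 17.8, SD, n = 4 each, log2 fold change 0.47, authors' adjusted p = 3.22e-05). Its lower site, chr14:116114401-116115400, also separated the groups, at 62.2, 40.1, 51.9 and 69.7 against 82.6, 79.4, 78.8 and 80.4. Groups did not overlap at 7 of the 8 Gpc5 sites, against 57% of all sites, which were listed for differing between these libraries. Library 52 was the lowest of all 8 libraries at 5 of the 8, and without it 3 passed the authors' p limit in the rebuilt test, 2 higher and 1 lower. After scaling to equal medians, limma's log2 difference at the leading site went from 0.48 to 0.25 (unadjusted p = 0.101).

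Of 58 synaptic adhesion genes listed, 3 held sites, against 0.692% of all protein-coding genes. These 3 genes are long, at 370.6 to 1140.3 kb, and long genes hold more windows. All 10 of their sites were higher, as were 69.4% of all sites (median log2 fold change 0.46, the same as over all sites). Astn2 and Chl1, adhesion genes with lower sites, were not on this list. The groups did not overlap at 5 of the 10 sites, against 57% over all sites. Cntnap5b, a contactin-associated protein of the neurexin superfamily, held 4. At chr1:100394201-100395500, in an intron, susceptible libraries read 112, 103, 118 and 113 and controls 80.6, 66.96, 69.04 and 97.8 (log2 fold change 0.51, authors' adjusted p = 0.00021). Cdh12, a classical cadherin, held 3 sites, and at chr15:21196701-21198000 susceptible libraries read 99.2, 145, 114 and 111 against 98.4, 76.9, 76.8 and 91.5. The groups did not overlap, but susceptible library 50 and control library 49 lay within 1 read of each other. Cntn6, a contactin of the immunoglobulin superfamily, held 3 sites, at each of which the groups overlapped. At chr6:104549901-104550900 its libraries read 77.4, 87.9, 79.3 and 83.8 against 81.3, 54.6, 40.8 and 58.4, with control library 49 inside the susceptible range. After scaling to equal medians, limma's log2 difference at the leading site went from 0.52 to 0.29 for Cntnap5b (unadjusted p = 0.0642), from 0.44 to 0.21 for Cdh12 (unadjusted p = 0.171) and from 0.52 to 0.29 for Cntn6 (unadjusted p = 0.109). Without library 52, 1 adhesion site passed the authors' p limit in the rebuilt test, against 8 with all libraries.

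Astn2, an astrotactin of neuron-glia adhesion, showed both directions within 1 gene. It held 3 higher and 2 lower intronic sites, and the groups did not overlap at any of the 5, against 57% of all sites. The lower site chr4:65513701-65514700 read 48.3, 67.9, 45.02 and 52.3 in susceptible and 78.6, 104, 71.96 and 74.9 in control libraries. Close beside it, the higher site chr4:65516001-65517000 read 86.7, 102, 87.1 and 86.3 against 63.4, 64.5, 57.4 and 78.9. Without library 52, 1 of the 5 Astn2 sites passed the p limit in the rebuilt test, a higher one. Klhl1, a kelch-like protein of neurons, held 3 higher and 1 lower site. Slc7a11, the cystine-glutamate exchanger subunit, held 2 of each.

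**Figure D3:**
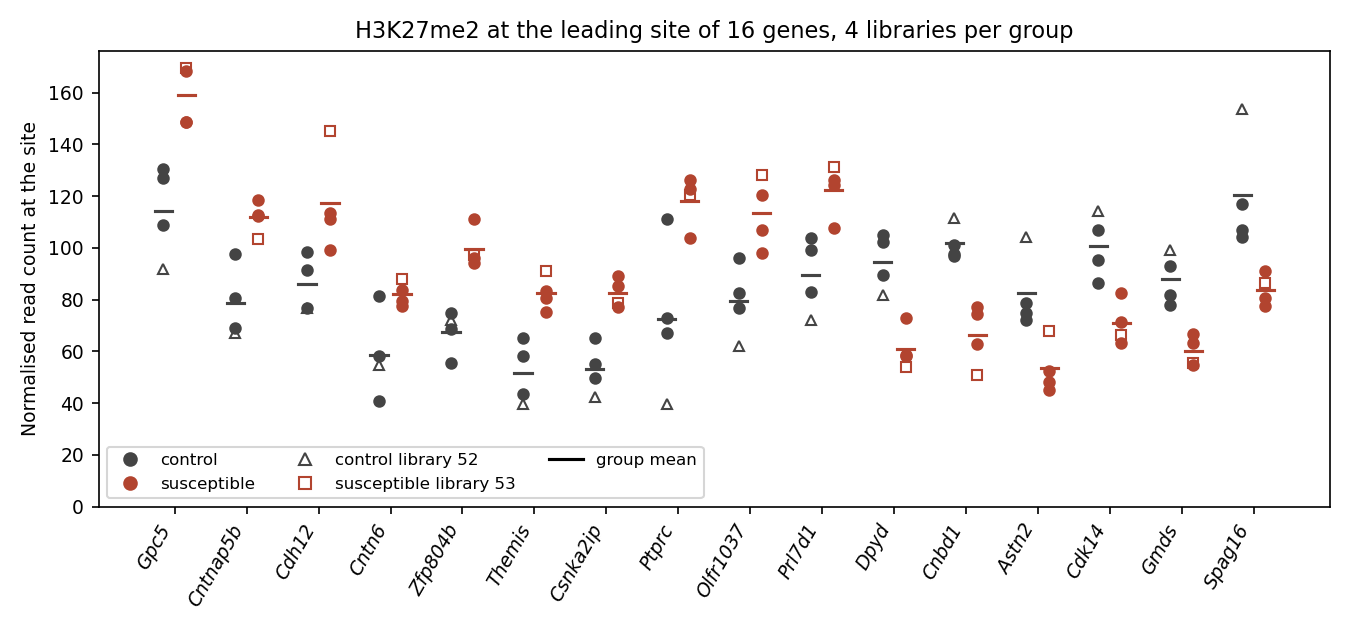
Normalised read count (vertical axis, from 0) at the leading site of 16 genes, 1 symbol per library, with control in grey, susceptible in red and bars for group means of 4 libraries. Susceptible libraries lie above controls from Gpc5 to Prl7d1 except where groups overlap at Cntn6 and Ptprc, and below them from Dpyd to Spag16.

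Single higher sites also fell in Ptprc and Themis. Ptprc encodes CD45, the tyrosine phosphatase of blood-lineage cells and microglia. Its exonic site, chr1:138077101-138078600, read 104, 120, 126 and 123 in susceptible libraries and 111, 39.7, 72.9 and 67.03 in controls (log2 fold change 0.70, authors' adjusted p = 5.86e-08, limma unadjusted p = 0.00282). Control library 52 was lowest and control library 49 lay within the susceptible range. Ptprc was the 1 gene of 13 microglial markers with a site, against 0.692% of all protein-coding genes. It is 113 kb long, and long genes hold more windows. Themis, a regulator of T cell selection, read 83.3, 91.03, 75.4 and 80.5 against 58.1, 39.7, 65.2 and 43.4 at chr10:28714001-28715000, an intronic site without overlap (log2 fold change 0.68). Without library 52, the Themis and Ptprc sites still passed the p limit.

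Other higher sites fell in genes of varied roles. Zfp804b, a zinc finger protein, held 4 intronic sites, all higher, and at chr5:7050801-7052000 susceptible libraries read 95.9, 97.2, 93.96 and 111 against 74.6, 71.9, 55.4 and 68.6. The groups overlapped at the other 3. Csnka2ip, a partner of a casein kinase subunit, held 3 higher sites, and at chr16:64484801-64485800 it read 89.3, 78.7, 85.2 and 77.1 against 49.5, 42.2, 65.2 and 55.2. The groups did not overlap at any of its 3 sites, against 57% of all sites. Acss3, a short-chain acyl-CoA synthetase, held 2 higher sites and 1 lower, and its leading higher site averaged 98.7 ± 5.97 in the susceptible group against 67.4 ± 10.8 (SD, n = 4 each). Of genes with a single site, the potassium channel gene Kcnb2 (103 ± 7.09 against 77.0 ± 10.1), the guidance cue gene Sema3a (92.6 ± 6.5 against 65.1 ± 18.2) and the oligodendrocyte transcription factor gene St18 (86.9 ± 7.67 against 63 ± 7.36) were higher without overlap (SD, n = 4 each). Each was the 1 member of its list with a site, out of 34, 38 and 16, against 0.692% of all protein-coding genes. These genes are long as well, at 374 to 477 kb.

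Dpyd encodes dihydropyrimidine dehydrogenase, which begins pyrimidine breakdown, and held 3 intronic sites, all lower and all without overlap. Of all lower sites, 56.4% were without overlap. At chr3:118736601-118737700 susceptible libraries read 58.2, 54, 58.7 and 73 and controls 102, 81.9, 89.5 and 105 (61 ± 8.29 against 94.6 ± 10.9, SD, n = 4 each, log2 fold change -0.63, authors' adjusted p = 2.94e-05, limma unadjusted p = 0.000949). Enrichment over IgG was 2.03 in susceptible and 4.19 in control. All 3 passed the p limit without library 52 as well. Cnbd1, a protein with a cyclic nucleotide-binding domain, held 2 lower and 3 higher sites, and its leading site, chr4:18950101-18951300, read 62.8, 50.9, 74.4 and 77.1 against 97.8, 112, 101 and 96.99.

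Other lower sites fell in genes of varied roles. Gmds, the first enzyme of GDP-fucose synthesis, read 66.8, 55.5, 54.8 and 63.04 in susceptible and 81.9, 99.2, 77.8 and 93.05 in control libraries at chr13:31982001-31983100. Cdk14, a cyclin-dependent kinase, read 70.9 ± 8.6 against 101 ± 12.2 at chr5:4843401-4844500. Spag16, a protein of the ciliary axoneme with 1 site in each direction, read 83.8 ± 6.09 against 120 ± 22.9 at chr1:70475401-70476800 (SD, n = 4 each). The groups did not overlap at any of these 3 intronic sites. Cpa6, a secreted carboxypeptidase, had a smaller authors' adjusted p of 8.55e-06, but control libraries 49 and 58, at 103 and 106, lay within the susceptible range of 83.3 to 108. Its other site, chr1:10620501-10621500, was higher without overlap (log2 fold change 0.47).

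Chemosensory receptor genes, which are silent in most tissues and lie in clusters, held sites about as often as other genes. Of 1471 olfactory, vomeronasal, trace amine and taste receptor genes, 11 (0.748%) held 12 sites, against 0.692% of all protein-coding genes. The sites were 11 higher and 1 lower (median log2 fold change 0.50, against 0.46 over all sites), and groups did not overlap at 6. Deposited log2 fold changes of the higher sites spanned 0.44 to 0.53. At Olfr1037, chr2:86087401-86088700, susceptible libraries read 120, 128, 97.9 and 107 and controls 76.6, 62, 82.7 and 96.2, without overlap. At Olfr1012, chr2:85760101-85761100, they read 73.4, 86.4, 80.3 and 78.8 against 48.2, 47.1, 60.3 and 68.6, also without overlap. At the start of Vmn2r3, chr3:64286601-64287600, they read 95.3, 98.7, 75.4 and 85.4 against 57.5, 76.9, 61.3 and 60.7, where control library 52 overlapped. The vomeronasal genes Vmn2r1, Vmn2r3, Vmn2r4 and Vmn2r7 lie in 1 stretch of chromosome 3 and shared this direction at 5 sites. The 1 lower site, in an exon of Vmn2r22 at chr6:123628001-123629000, read 58.9, 50.9, 54.8 and 79.6 against 80.6, 96.7, 85.6 and 85.2. Receptor genes can have near-identical copies. The reads were unique alignments, per the file headers, but how surely they were placed among copies was not tested. Without library 52, 3 receptor sites passed the p limit against 12 with all libraries.

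At transcription starts, the split followed enrichment. Of 35 start sites, 15 were higher, none of them below IgG. Of the 20 lower, 14 were below IgG, among them several in the 1 gene Sfi1 and the 3 mitochondrial sites. The lower start sites thus came from fewer genes than sites. Receptor genes held 6 of the 15 higher start sites. Prl7d1, whose promoter is printed above, read 126, 131, 108 and 124 in susceptible and 104, 71.9, 99.2 and 82.8 in control libraries (log2 fold change 0.45, authors' adjusted p = 0.000481). Sprr2a2 read 411, 393, 390 and 431 against 502, 489, 486 and 453, without overlap. The difference was small (log2 fold change -0.25, limma unadjusted p = 0.122), and the gene's other site was higher. This gene too belongs to a family of near-identical copies. Slco1a1, an organic anion transporter, had overlapping groups at 144 ± 11 against 105 ± 35.2 (SD, n = 4 each), with control library 49 at 153 and library 52 at 71.9.

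Of 21 gene lists examined, 13, of 14 to 164 members each, held 0 sites. With 0.692% of all protein-coding genes holding a site, lists of this size would often hold none. They were glutamate receptors, GABA receptors and synthesis, sodium and calcium channels, medium spiny neuron identity, cAMP and calcium signalling, Polycomb and H3K27 enzymes, developmental transcription factors, immediate early genes, stress and neurotrophin signalling, ribosomal proteins, and markers of astrocytes, vessels, and cortical and interneuron cells. A gene outside the tested windows could not hold a site, so a count of 0 does not show that the mark was equal there. The zinc finger list held 6 sites in 2 of 464 genes, 4 higher in Zfp804b and 2 lower in Zfp600, and the multicopy list 1, in Sp110.

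Sites below IgG made up 10.9% of the lower sites, and their groups mostly overlapped. The groups overlapped at all but 6 of the 69 (8.7% without overlap, against 62.2% of the 566 other lower sites), and 20 of the 71 had an unadjusted limma p under 0.05. Control library 55 was the highest of the 8 at 43 of the 69, while control library 49 lay below the highest susceptible library at 56. Sfi1, a centrin-binding protein of the centrosome with many annotated copies of its sequence, held 7 such sites, all lower and all overlapping. At chr11:3191601-3194600 susceptible libraries read 980, 1165, 1071 and 971 and controls 924, 985, 1667 and 1293 (log2 fold change -0.22, authors' adjusted p = 1.49e-09, limma unadjusted p = 0.37). Only control libraries 55 and 58 were above the susceptible range. A stretch of about 1 Mb on chromosome 8, from 19.7 Mb, held 24 sites, 23 lower and 13 below IgG.

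The tips of chromosomes gave another such group. On 8 chromosomes a site lay past the last annotated gene, by 6.7 to 58.1 kb, and all 8 were lower and below IgG, with enrichment of at most 0.16 in either group. At chr18:90601401-90603400 susceptible libraries read 351, 265, 276 and 226 and controls 240, 635, 562 and 311, the largest of these differences (log2 fold change -0.65). Control libraries 52 and 55 were above all susceptible libraries at 8 of the 8 sites, library 58 at 4, and library 49 was below the highest susceptible library at all 8. The groups therefore overlapped at each, and 1 of 8 had an unadjusted limma p under 0.05.

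The 16 sites with a mean above 1000 reads were all lower, all below IgG and all overlapping between groups, with deposited log2 fold changes of -0.14 to -0.31 and limma unadjusted p-values of 0.103 to 0.666. At Chl1 and Tmem267 the adjusted p in the authors' deposited table is listed at 0. The Chl1 site, in an exon of this adhesion gene, read 9644, 15882, 11770 and 11666 in susceptible and 9909, 21392, 12333 and 12026 in control libraries. Library 52 was the highest of the 8 at this site and at the 5 others above 10000 reads, and without it the Chl1 difference turned to 0.08 on limma's log2 scale. The mitochondrial chromosome held 3 sites, also lower, with enrichment of 0.01 in both groups. At the first, in mt-Nd1, libraries ranged from 870 to 1528 in susceptible and from 850 to 2340 in control.

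Control library 52 lay at the edge of the groups at most sites. It was the lowest of all 8 libraries at 915 of 1440 higher sites (63.5%) and the highest at 342 of 635 lower sites (53.9%). Its median was 57.04 reads at higher sites, against 68.1 to 79.3 in the other controls, and 112 at lower sites, against 95.3 to 97.1. Susceptible library 53, the next in depth, was the highest of the 8 at 593 higher sites (41.2%) and the lowest at 316 lower sites (49.8%). Control library 49, among the deepest, had the smallest distance from the susceptible libraries at higher sites, with a median of 79.3 against 92.6 to 100.3. The part of depth in the calls was not tested.

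**Figure D4:**
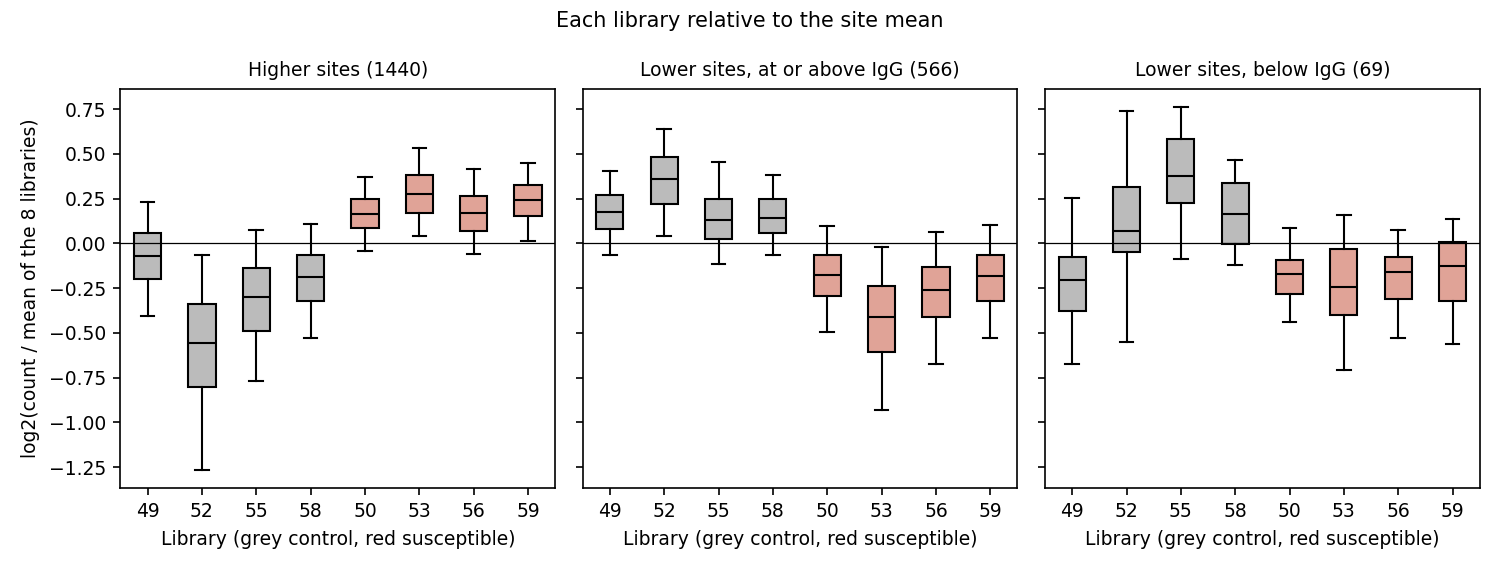
log2 ratio of each library's count to the mean of the 8 libraries at a site, for higher sites, lower sites not below IgG and lower sites below IgG. Boxes show quartiles and medians and whiskers the 5th to 95th percentiles over sites. Library 52 is the lowest control in the first panel and the highest in the second, and library 55 is the highest in the third.

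Leaving out library 52 cost more calls than leaving out any other. The authors' G-test, rebuilt from the normalised counts, put 1949 of the listed sites past their p limit of 0.0001 with all libraries, 1353 of them higher. Without library 52 it put 559 past it (348 higher and 211 lower), without susceptible library 53 it put 885, and without control library 55 it put 1150. Leaving out any of the other 5 libraries left 1190 to 1584. The group means kept their direction at 2074 of 2078 sites without library 52 and at 2070 or more without any other. The sites were listed for differing between these same libraries, so a kept direction was likely beforehand. The groups did not overlap at 1231 sites without library 52, where fewer libraries could overlap. Of the 559 sites, 86.4% were intergenic. Of the sites below IgG, 56 of 70 passed without library 52, against 503 of 1879 of the others.

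**Figure D5:**
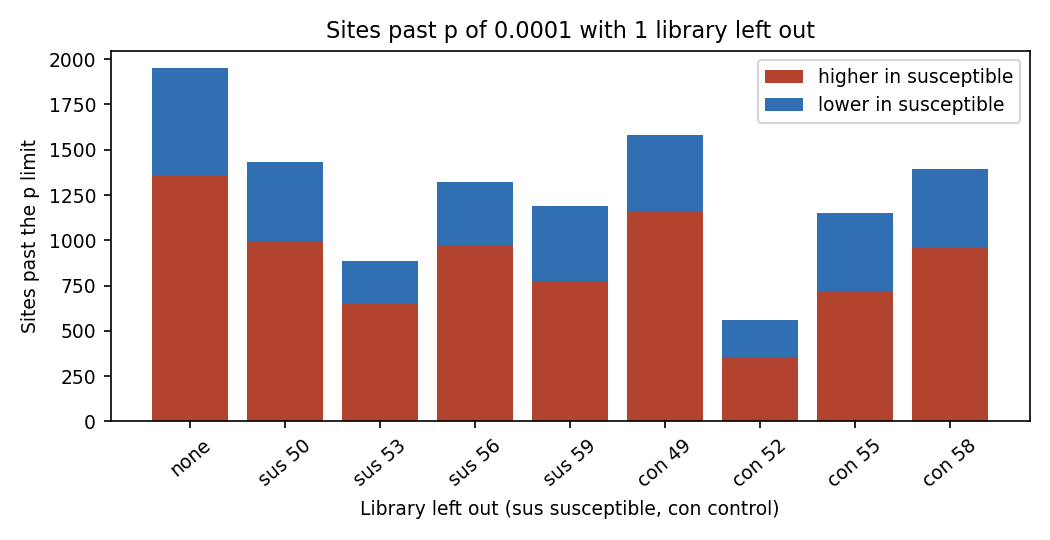
Number of listed sites past a p of 0.0001 in the rebuilt G-test with all libraries (none) and with each library left out, split into higher (red) and lower (blue). The bar without control library 52 is the shortest at 559 sites, against 1949 with all libraries.

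Resilient mice, which went through the same defeat and were classed as unaffected, were compared by the authors with the same 4 control libraries in a separately normalised table. Its sites equalled 8.84% of the number of windows tested there. Of its 4659 sites, 79.5% were higher in resilient mice, and 92 were below IgG. The 2 comparisons share those libraries, so their values stand side by side with no test. Of the 40 genes named by rule, 16 had a site past the threshold in the resilient table that overlapped their leading site. These genes were picked in part by smallest p. The overlap over all susceptible sites is not given here, so whether 16 of 40 is many or few cannot be judged. Hsd3b3, a steroid dehydrogenase, read 139 ± 13.2 against 98.4 ± 14.1 in the susceptible table and 219 ± 15.9 against 155 ± 27.2 in the resilient one (log2 fold change 0.50 in each, over a differently bounded site). Cdk14 averaged 68.3 ± 10.9 in resilient mice and 98.7 ± 12.3 in controls (SD, n = 4 each, log2 fold change -0.53, against -0.51 in susceptible mice). Gpc5, Dpyd and Cntnap5b had no resilient site overlapping their leading one.

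H3K27me1 was read in other libraries of the same cohort. In all, 28 of the 2075 H3K27me2 sites (1.35%) overlapped a susceptible H3K27me1 site by at least 1 bp, and 30 of 12122 H3K27me1 sites (0.247%) overlapped an H3K27me2 site. The H3K27me1 sites equalled 4.48% of the number of windows tested for that mark. Which windows were tested for each mark is not listed, so no expected overlap can be given. Of the 28 sites, 22 were below IgG for H3K27me2, among them those in Sfi1, Tmem267 and Chl1. The 3 mitochondrial sites were lower for H3K27me2 and higher for H3K27me1. At the gene level, 39 of the 152 genes with an H3K27me2 site (25.7%) also held an H3K27me1 site, which is 0.945% of the 4125 genes with one. Of all protein-coding genes, 18.8% held an H3K27me1 site, and the genes with H3K27me2 sites were longer than most.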

How the data were processed

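CUT&RUN libraries (14 PCR cycles for H3K27me2, per the labels' protocols) were processed on mm10 with MACS2 2.2.6, SAMtools 1.10, Bowtie2 2.4.1, Trim Galore 0.6.5 and cutadapt 2.10, per the submitters' processing notes, which give no roles. Per the file headers, diffReps 1.55.4 compared 1000-bp windows at 100-bp steps with a G-test on pooled groups, a p limit of 0.0001 and IgG libraries as background. Read files hold unique alignments without duplicates, per the file headers. The deposited signal per library is reads divided by a library constant, and group averages are of that signal. Undoing that division gave whole numbers of reads (within 0.1) at 100% of the values under 400, the range checked. The deposited enrichment is the ratio to IgG, per group, and the deposited log2 fold changes and p-values are the authors'. Deposited tables were normalised separately.

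From these values, limma 3.58.1 (R 4.3.3) was fitted on log2(normalised count + 1) across 4 against 4 libraries with a mean-variance trend and Benjamini-Hochberg adjustment over 48304 windows. It was tested on simulated data. limma's prior spread came from listed sites alone, which were chosen for differing. limma fold changes are on that log2 scale, which understates low counts. A G-test was rebuilt from the counts, and at 100% of sites its log10 p differed from the authors' by under 0.05. Sites were assigned with GENCODE M21 (GRCm38), since the table names no genes. Below IgG means an enrichment under 1 in both groups. Means ± SD are over libraries.

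Named genes needed an adjusted p under 0.05, a mean of at least 10 reads and a named, not predicted, symbol off the mitochondrial chromosome. They were the 10 higher and 10 lower of smallest authors' adjusted p, the 6 and 6 of smallest limma p, up to 3 per gene list, the 6 with most sites, up to 8 with a start site and any PRC2 or demethylase gene (0 had a site). Any other gene or region named was picked with its values known. The members and the 21 gene lists were chosen with earlier results of these data known. Python 3.11.15, pandas 2.3.3, numpy 2.4.6 and scipy 1.17.1 were used. Alternatives tried were other thresholds, pseudocounts, scalings, weights and each library left out. The early life stress and resilient H3K27me1 tables were not used here. The values of 1 named gene are not reported here.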

Additional observations from a re-analysis of the deposited data

Results flagged for a closer look

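At 3 of 39 named genes looked at, 1 library stood apart from the other 3 of its group by more than Dixon's 95% limit, and each time it was control library 52. It read 57.04 at the Immp2l site, 62 at the Kcnb2 site and 96.7 at the Thsd7b site, low at the first 2 and high at the last. Of the 78 groups of 4, chance flags about 1 in 20. The part of its depth in these values was not tested.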

How the results depend on the processing

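The number of libraries, 4 a group, limits precision, and the part of depth was not tested. No paired analysis was possible because the library numbers are not shared between groups, and no label says that consecutive numbers share a mouse or batch. An adjusted p of 0.01, a mean of at least 20 reads and leaving out mitochondrial and sex chromosomes left every count of authors' calls within 1.5 times. Requiring enrichment over IgG above 1 in a group moved the higher share from 69.4% to 71.8%. In the rebuilt G-test, scaling to equal medians left 655 sites (17 higher, 2.6%). Leaving out 1 library left 559 to 1584 sites, 348 to 1155 higher and 211 to 437 lower, with 62.3% to 73.9% higher. Without libraries 52 and 53 together, an alternative chosen after seeing the data, 290 sites passed, 181 higher and 109 lower (62.4% higher). limma called 0 sites over all windows under every alternative run, including leaving out each library (0 to 0), with 762 to 1951 sites at an unadjusted p under 0.05. When limma was adjusted over the listed sites alone, it called 1930, since those sites were already selected. Groups failed to overlap at 724 sites after scaling to equal medians, against 1182. Of named genes, limma's log2 change at Chl1 turned to 0.08 without control library 52 (range -0.29 to 0.08 with each library left out) and that at Duxf3 to 0.06 without control library 55 (range -0.29 to 0.06). The other 38 kept their direction under the pseudocount of 5, equal-median scaling and each library left out. Their sites were listed for differing between these same libraries, which favours a kept direction. Under equal-median scaling 17 of the 40 lost an unadjusted p under 0.05 and 4 gained one. The cause was not tested.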
